A study of Mus musculus with 6 samples.

Results

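The expressed long intergenic noncoding RNAs (lincRNAs) of mouse primary hepatocytes were compared between cells that overexpressed HuR and control cells. They are the gene models annotated as lincRNA whose FPKM reached at least 1 in 3 or more of the 6 libraries. FPKM is the reads of a model divided by its length and by a library size, here as scaled by the authors. The rule gave 163 lincRNAs, out of 5386 lincRNA models and 54118 gene models of all kinds. Of the other lincRNA models, 3975 had no read in any library and 1248 had reads but stayed below the minimum. The 163 were chosen by their FPKM, so their level is not a result.

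C57BL/6 mouse livers were perfused with collagenase to free their hepatocytes, the parenchymal cells of the organ. They were infected overnight with an adenovirus for beta-galactosidase (beta-Gal, the control, n = 3) or for HuR (n = 3), so the control cells carry a virus too. Total RNA was sequenced. Neither the age of the mice nor the promoter in the viruses was stated in the labels. Whether replicates stem from different mice or dishes was not stated either, so the p-values cover the spread between these samples alone, which may be technical.

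A lincRNA is a transcript longer than a typical small RNA that lies between protein-coding genes and has no known long reading frame. Some lincRNAs, such as Malat1 and Neat1, build or occupy nuclear bodies, some carry microRNAs or snoRNAs that are cut out of them, and many arise beside the promoter or the end of a coding gene and are quickly degraded by the nuclear exosome. HuR, encoded by Elavl1, is an RNA-binding protein known to bind U-rich and AU-rich stretches in introns and 3′ ends of mRNAs and in some lincRNAs. In the liver HuR is known for stabilizing many of the mRNAs it binds.

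The whole reads behind the FPKM summed to between 15413306 and 17108184 per library. Elavl1 had a mean FPKM of 5.66 ± 0.233 (SD, n = 3) with beta-Gal and 1935 ± 433 (SD, n = 3) with HuR, and so differed by 8.16 on the log2 scale (SE 0.14, limma adjusted p = 1.16e-06). The summed FPKM of 8 hepatocyte markers lay between 17457 and 17792 with beta-Gal and between 18740 and 19979 with HuR, most of it from Alb, and of the 8, 2 rose (Alb and Serpina1a) and 2 fell (Cps1 by 0.62 and Cyp3a11 by 0.25 on the log2 scale), or 0 and 2 with TPM scaling. The summed FPKM of 8 Kupffer cell and macrophage markers lay between 18.1 and 22.1 and between 32.3 and 40.4, with Cd68 the marker of that list that rose (log2 difference 0.82, limma adjusted p = 0.00196), while Clec4f, which defines Kupffer cells, was at 0.11 to 0.46 FPKM in every library. Endothelial markers summed to 4.08 to 4.43 and 5.16 to 6.12 FPKM, cholangiocyte markers to 1.79 to 1.81 and 1.73 to 4.81 with Cftr at 0, stellate cell markers to at most 0.681 with Acta2 at 0, and lymphocyte markers to at most 0.041 with Nkg7 and Ms4a1 at 0. In bulk samples, fewer cells of a type and less RNA per cell cannot be told apart, and the part of these markers in the results below was not tested.

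The 163 lincRNAs were sparse transcripts. Their median FPKM over the 6 libraries was 1.82, against 6.48 for the 11281 genes that met the same minimum, and a median lincRNA rested on 47.2 reads per library, against 457.5. For 11 of them the mean was under 10 reads per library. The 6 most abundant (Gm26917, AW112010, Malat1, Gm10076, Epb41l4aos and Snhg6) held 49.5% of the summed FPKM of all 163. Most have no given name, and 150 of the 163 carry a clone-type name. Models on 20 chromosomes contributed. The median coefficient of variation between libraries was 15.5% in the beta-Gal group and 18.1% in the HuR group.

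Membership itself was unequal between the groups. Of the 163, 91 reached the minimum in all 6 libraries, 16 in the 3 HuR libraries alone, 4 in the 3 beta-Gal libraries alone and 52 in another combination. The 16 and the 4 had to differ in the direction through which they passed, so counts that hold them are also given without them. The 52 stay in those counts, although some, such as 2810414N06Rik, met the minimum mainly through the libraries of a single group. At the edge of the rule, 4933404O12Rik was just inside, at 1.05, 1.09 and 1.0004 FPKM with beta-Gal and 0.616, 0.978 and 0.959 with HuR. Just outside was Trp53cor1, known as lincRNA-p21, a p53-induced RNA that lies beside Cdkn1a and has been reported as bound by HuR. Its FPKM was 0.142, 0.330 and 0.417 with beta-Gal and 0.989, 1.21 and 1.41 with HuR.

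One library stood apart for these RNAs. HuR library 1 was the lowest of its group for 89 of the 163 lincRNAs (54.6%) and for 34.1% of all genes tested, and the highest for 28 (17.2%) and for 43.3%. In its FPKM, 1 read in a model of 1 kb counted 0.0664, at 15902608 reads in total. In HuR library 3 it counted 0.0641, at 15413306 reads, so the authors' scaling did not follow the read total alone. The part of this scaling in the ranks of HuR library 1 was not tested.

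More lincRNAs were called higher than lower with HuR. The test was limma on log2(FPKM + 1), fitted to all 11281 genes, two-sided, with Benjamini-Hochberg adjustment and a threshold of 0.05. It called 45 of the 163 lincRNAs higher and 15 lower and left 103 without a call. That is 27.6% higher and 9.20% lower, beside 20.7% higher and 24.8% lower for all genes tested. Without HuR library 1, 48 lincRNAs were called higher and 16 lower. With TPM scaling, which moves the median of all genes to -0.11, the split was 41 higher and 23 lower for the lincRNAs, and 1543 higher and 3718 lower, in place of 2334 and 2803, for all genes. The median log2 difference was 0.08 over the lincRNAs and -0.01 over all genes, and among the called ones the median size was 0.78 against 0.40. Among called ones under 5 FPKM it was 0.76 against 0.48. Depth was not matched there either, with a median of 30.9 reads per library for lincRNAs under 5 FPKM and 151.7 for all such genes. The FPKM of the groups did not overlap for 81 of the 163 (49.7%), beside 58.1% of all genes tested.

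Of the 91 lincRNAs that reached the minimum in every library, 23 were called higher and 10 lower (25.3% and 10.99%), beside 19.9% and 26% of the genes that did the same. Of the 128 with a mean FPKM under 5, 34 were called higher and 12 lower (26.6% and 9.38%), beside 16.8% and 22.7% of all genes under 5 FPKM. All 16 that passed through the HuR libraries alone were called higher, and 3 of the 4 that passed through the beta-Gal libraries alone were called lower, which the rule made likely. Without these 20, 29 of 143 lincRNAs were called higher and 12 lower (20.3% and 8.39%), beside 19.1% and 24.6% of all genes counted in the same way, so the share called higher was then near that of all genes.

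**Figure D1:**
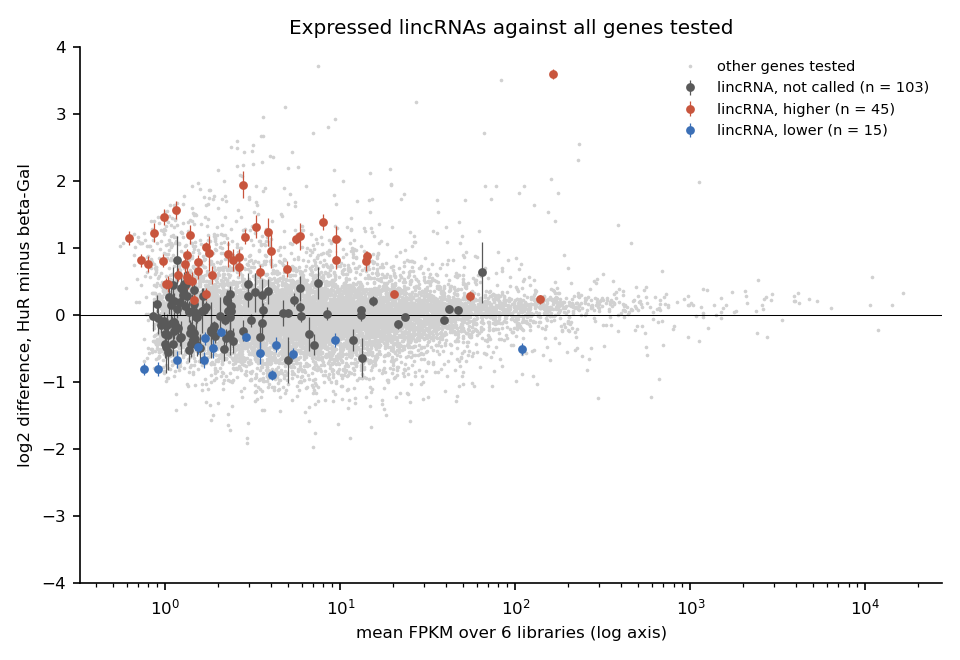
Log2 difference (HuR minus beta-Gal, on log2(FPKM + 1)) against mean FPKM over the 6 libraries on a log axis, with the 163 lincRNAs as large points (bars are the SE of the difference) and the other genes tested as small grey points, those beyond 4 in either direction not drawn. The 45 lincRNAs called higher reach 3.60, while the 15 called lower end at -0.90.

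The largest rise was that of Gm26917, a clone-named model on the plus strand at chr17:39843013-39846341 (build GRCm38). Its FPKM was 26.2, 22.4 and 23.4 with beta-Gal and 279, 327 and 301 with HuR. The log2 difference was 3.60 (SE 0.08, limma adjusted p = 3.29e-06). Its end lies 12 bp from the end of CT010467.1, which the table annotates as rRNA and which runs towards it on the other strand. CT010467.1 was at 394, 247 and 256 FPKM with beta-Gal and 688, 596 and 566 with HuR, and it also rose (log2 difference 1.07, limma adjusted p = 0.00358). Whether the reads of Gm26917 come from ribosomal precursor RNA was not tested, and the labels do not state how rRNA was removed.

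The share of reads in the lincRNAs was computed with and without Gm26917. It held between 2.75 and 3.18% of all lincRNA reads with beta-Gal and between 28.4 and 31.2% with HuR. The 163 together took 0.274 ± 0.0057% of reads with beta-Gal and 0.335 ± 0.023% with HuR (SD, n = 3 each, exact two-sided permutation p = 0.1, the smallest that 3 against 3 allows). Without Gm26917 the shares were 0.266 ± 0.0055% and 0.236 ± 0.012%, so the direction was the opposite (exact two-sided permutation p = 0.1). Malat1 made up most of that fall, and without both the shares were 0.174 ± 0.0052% and 0.173 ± 0.016% (exact two-sided permutation p = 1.0). The counts of rises and falls are not carried by this 1 gene, which adds 1 to the 45.

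The next largest rises were of clone-named lincRNAs with little or no signal in the control cells. AC122397.3, which lies 11.6 kb from Klf10 and points away from it, was at 0.909, 0.218 and 0.556 FPKM with beta-Gal and 4.29, 6.32 and 4.38 with HuR. Klf10 encodes a transcription factor induced by TGF-beta. The log2 difference of AC122397.3 was 1.95 (SE 0.20), from 15 and 126 reads, and it is given with no test, since it passed the rule through the HuR libraries alone. AC122397.1, named from the same clone, rose as well, with a log2 difference of 0.87.

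Gm17508, Gm26610, Gm43848 and Gm29561 were close to silent in the control. Gm17508 was listed at 0, 0 and 0.258 FPKM with beta-Gal and at 2.44, 1.92 and 2.26 with HuR, from 3 and 71 reads. Gm26610 was listed at 0, 0.168 and 0 and at 1.69, 1.86 and 2.19, from 3 and 93 reads. Gm43848 was listed at 0, 0.138 and 0.188 and at 1.23, 1.72 and 1.90, from 7 and 96 reads. Gm29561, chosen here after its values were seen, had 0 reads in the beta-Gal group and 37 in the HuR group. All 4 passed the rule through the HuR libraries alone, so their groups could not overlap, and the log2 differences of the first 3, at 1.57, 1.46 and 1.23, are a description. Gm26799 passed in the same way, at 0.440, 0.211 and 0.689 FPKM with beta-Gal and 2.001, 2.49 and 2.40 with HuR (log2 difference 1.20).

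Better measured were Gm30262, AC154738.2, Gm47814 and Gm13056, which passed the minimum in all 6 libraries. Gm30262 was at 3.71, 4.49 and 3.56 FPKM with beta-Gal and 11.001, 14.2 and 10.6 with HuR (log2 difference 1.39, SE 0.12, limma adjusted p = 2.71e-04). It lies 90.5 kb after the end of Phlda1, a pleckstrin-homology-like gene induced by growth signals. Phlda1 rose from 20.8, 21.4 and 21.2 FPKM to 142, 54.0 and 48.2 (log2 difference 1.72, limma adjusted p = 0.0106), with HuR library 1 above the others.

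Gm13056 was at 2.23, 4.68 and 2.91 FPKM with beta-Gal and 9.19, 7.39 and 8.75 with HuR (log2 difference 1.18, SE 0.20, limma adjusted p = 0.00375). It lies 21.4 kb before the start of Epha2, a receptor tyrosine kinase, on the same strand. Epha2 rose from 32.4, 31.1 and 31.2 FPKM to 146, 116 and 108 (log2 difference 1.92, limma adjusted p = 5.14e-05). AC154738.2 went from 1.08, 1.39 and 1.85 FPKM to 3.89, 5.42 and 6.07 (log2 difference 1.32, limma adjusted p = 0.00114), and Gm47814 from 2.85, 1.37 and 1.55 to 4.57, 6.77 and 6.11 (1.24, limma adjusted p = 0.00352). None of these groups overlapped.

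Among the other rises with many reads, 4732419C18Rik went from 3.47, 2.76 and 3.12 FPKM to 7.83, 7.71 and 8.49, and C130083M11Rik from 1.13, 1.55 and 1.39 to 3.69, 4.91 and 4.33. Gm44658 went from 9.87, 10.2 and 8.84 to 16.7, 20.6 and 18.4. These 3, with log2 differences of 1.13, 1.17 and 0.88, kept their call under all alternatives tried. They were picked after their values were seen, for their depth. The remaining rises, other than Gm29561, ranged from 0.23 to 1.14 on the log2 scale.

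**Figure D2:**
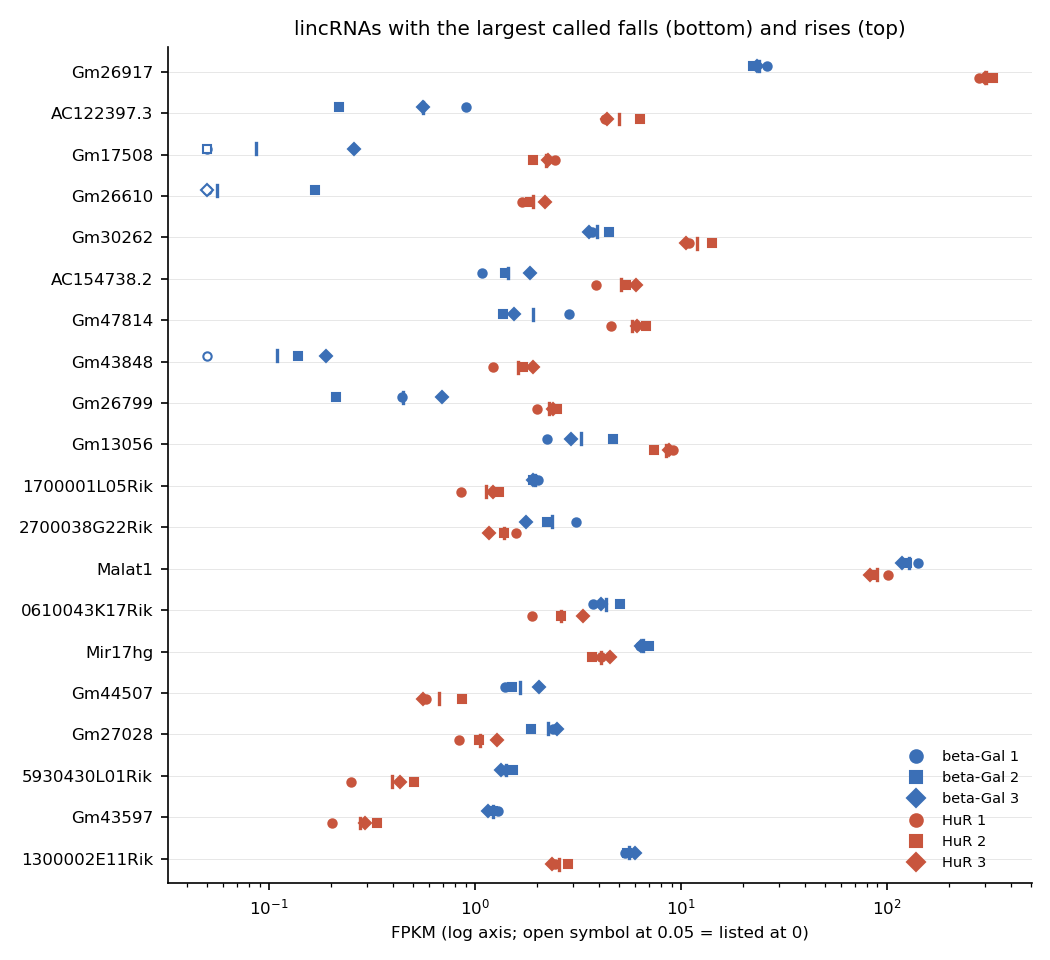
FPKM in every library (log axis) for the 10 lincRNAs with the largest called rises (top) and the 10 with the largest called falls (bottom), with the groups not overlapping. Symbols are libraries, short bars are group means, and open symbols at 0.05 stand for a value listed at 0. Gm26917 moves from 22.4 to 26.2 up to 279 to 327 FPKM, while 1300002E11Rik moves from 5.33 to 6.00 down to 2.37 to 2.82.

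The falls were fewer and, on the scale of log2(FPKM + 1), smaller. That scale understates changes of low values, so it does not rank falls by their ratio. On it 1300002E11Rik showed the largest: 5.33, 5.45 and 6.00 FPKM with beta-Gal and 2.45, 2.82 and 2.37 with HuR (log2 difference -0.90, SE 0.07, limma adjusted p = 2.10e-04). It starts 6474 bp from Ehhadh, a peroxisomal enzyme of fatty acid oxidation, and runs away from it. Ehhadh fell too, by 0.29 on the log2 scale (limma adjusted p = 0.0204).

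Gm43597 and 5930430L01Rik passed the minimum through the beta-Gal libraries alone. Gm43597 was at 1.30, 1.22 and 1.155 FPKM with beta-Gal and 0.201, 0.335 and 0.291 with HuR, from 289 and 61 reads. 5930430L01Rik was at 1.39, 1.54 and 1.34 and at 0.249, 0.507 and 0.434, from 291 and 76 reads. Their log2 differences were -0.80 each, a description for the same reason. As a ratio of FPKM, also a description, each fell by more than 1300002E11Rik. 1700001L05Rik went from 2.02, 1.91 and 1.92 FPKM to 0.859, 1.30 and 1.23 (log2 difference -0.48, limma adjusted p = 0.00945).

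The other 3 of the largest falls were less certain. Gm44507 too passed the minimum through the beta-Gal libraries alone, so it had to fall and its fall is a description. It rested on 29 and 11 reads, and its call was lost in 2 count-based alternatives (voom). 0610043K17Rik went from 3.73, 5.06 and 4.11 FPKM to 1.90, 2.63 and 3.33 (log2 difference -0.56, limma adjusted p = 0.0288), and its model overlaps that of E130102H24Rik on the other strand, which was not called (0.02). Its call was lost without beta-Gal library 2 or 3 or HuR library 2 (limma adjusted p 0.0647 to 0.0922). 2700038G22Rik, whose model spans Snord93, went from 3.08, 2.23 and 1.77 to 1.58, 1.38 and 1.17 (log2 difference -0.48, limma adjusted p = 0.0394), a call lost without beta-Gal library 1 or 2 or HuR library 2 or 3 (limma adjusted p 0.0851 to 0.107). The labels do not state strand-specific counting, and without it reads of overlapping models on opposite strands cannot be told apart.

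HuR is known to bind U-rich RNA, so the 40 bases with the most T in the longest annotated transcript are shown for lincRNAs that fell, for 1 without a call (2900097C17Rik) and for 2 that rose (Gm26917 and Gm30262). They come from GENCODE M21 on GRCm38, run 5′ to 3′ and have runs of 7 or more T in capitals.
Gm43597, chr5:150603428-150603467, minus strand: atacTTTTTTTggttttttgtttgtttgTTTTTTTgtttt
Malat1, chr19:5799853-5799892, minus strand: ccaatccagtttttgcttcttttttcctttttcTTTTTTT
Mir17hg, chr14:115043444-115043483, plus strand: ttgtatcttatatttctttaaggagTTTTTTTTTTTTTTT
1700001L05Rik, chr15:83355908-83355947, minus strand: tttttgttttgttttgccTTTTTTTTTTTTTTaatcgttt
2900097C17Rik, chr2:156391495-156391534, minus strand: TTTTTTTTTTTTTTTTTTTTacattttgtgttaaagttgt
Gm26917, chr17:39843241-39843280, plus strand: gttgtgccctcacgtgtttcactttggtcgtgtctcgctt
Gm30262, chr10:111608503-111608542, plus strand: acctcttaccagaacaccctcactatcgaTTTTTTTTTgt
The windows of the 4 that fell were picked as rich in T and hold between 26 and 31. The window of 2900097C17Rik holds 30 and the longest run shown. The windows of the 2 that rose hold 16 or 17. The richest windows of 5930430L01Rik, 2700038G22Rik, Gm27028, 0610043K17Rik and Gm44507, also among the 10 largest falls, hold between 16 and 21, and those of the 10 largest rises between 16 and 24.

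Over all 163 the pattern was mixed with length. A run of TTTTTTT (sense strand, overlapping runs allowed) was present in 7 of the 15 that fell (46.7%), 12 of the 45 that rose (26.7%) and 22 of the 103 without a call (21.4%), beside 50.3% of protein-coding genes tested and 26.5% of other lincRNA models. ATTTA was present in 13 of the 15 (86.7%), 27 of the 45 (60%) and 60 of the 103 (58.3%). Without the lincRNAs that passed through 1 group alone, TTTTTTT was present in 6 of 12 that fell and 10 of 29 that rose, and ATTTA in 11 of 12 and 16 of 29. The transcripts that fell were longer, with a median of 3557 bp against 1043 bp for those that rose and 961 bp for the rest. Per kb the median number of ATTTA was 1.41, 0.83 and 0.67, and 0.86 for protein-coding genes. A match is a description of letters and not a binding site.

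Malat1, a nuclear speckle RNA, was the most abundant lincRNA that fell. Its FPKM was 142, 125 and 118 with beta-Gal and 101, 85.8 and 83.3 with HuR, from 45783 and 29762 reads (log2 difference -0.51, SE 0.09, limma adjusted p = 0.00526). Neat1, the scaffold of paraspeckles and the next gene, 22.0 kb away on the same strand, was at 12.7, 14.3 and 12.8 and at 7.34, 12.1 and 11.4. Its groups did not overlap, but its log2 difference of -0.37 (SE 0.17) was not called (limma adjusted p = 0.116), and HuR library 1 was the lowest. Of the list of nuclear architecture RNAs, 3 of 6 were tested and Malat1 was the 1 called, beside 24.8% lower of all genes tested.

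The mRNAs of proteins found with Neat1 moved in both directions. Of 13 paraspeckle proteins tested, 5 fell and 2 rose (7 and 2 with TPM scaling, 5 and 4 with median centring), beside 24.8% lower and 20.7% higher of all genes tested. Pspc1, a core paraspeckle protein, went from 5.27, 4.98 and 4.797 FPKM to 1.92, 1.30 and 1.30 (log2 difference -1.27), Nono, its partner, fell by 0.32 on the log2 scale, and Ewsr1, Cpsf6 and Tardbp fell as well. Hnrnph3 and Nudt21 rose, by 0.71 and 0.49. Sfpq, essential for paraspeckles, was not called (0.11, limma adjusted p = 0.265).

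Of 18 genes of the nuclear exosome and its adaptors tested, which degrade many short-lived noncoding RNAs, 6 fell and 4 rose (7 and 1 with TPM scaling, 5 and 5 with median centring). Beside the 24.8% and 20.7% of all genes tested, these counts do not set either list apart. Rbm7, the RNA-binding subunit of the NEXT adaptor, went from 12.7, 12.8 and 12.7 FPKM to 7.17, 6.05 and 6.90 (log2 difference -0.84). C1d and Dis3, a cofactor and a catalytic subunit, fell by 0.55 each, and Zfc3h1, Zcchc7 and Skiv2l2 fell as well. The core subunits Exosc3, Exosc2 and Exosc7 and the NEXT scaffold Zcchc8 rose, by 0.41, 0.22, 0.20 and 0.19, of which Exosc3 was the 1 still called with TPM scaling. The part of these genes in the lincRNA levels was not tested.

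Of the 163 lincRNA models, 8 overlap a microRNA hairpin of the RefSeq table (GRCm38.p6) on the same strand. Of these 8, 2 fell, 1 rose and 5 were not called, beside 24.8% lower and 20.7% higher of all genes tested. The mature sequences of the 3 called hosts, with the seed (bases 2 to 8) in capitals, show which microRNAs sit in them. Mir17hg is the host of the miR-17-92 cluster, Gm27028 of miR-30c and Gm26532 overlaps miR-24.
miR-17-5p: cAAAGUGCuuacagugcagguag
miR-20a-5p: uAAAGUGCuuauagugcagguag
miR-18a-5p: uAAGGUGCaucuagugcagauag
miR-19a-3p: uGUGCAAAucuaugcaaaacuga
miR-19b-3p: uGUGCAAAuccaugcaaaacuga
miR-92a-3p: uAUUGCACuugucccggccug
miR-30c-5p: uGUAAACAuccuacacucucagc
miR-24-3p: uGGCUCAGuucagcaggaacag
MiR-17-5p and miR-20a-5p share the seed AAAGUGC, and miR-19a-3p and miR-19b-3p share GUGCAAA. The libraries measure the host transcripts and not the mature microRNAs.

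Mir17hg was at 6.30, 7.02 and 6.42 FPKM with beta-Gal and 4.11, 3.69 and 4.52 with HuR, from 1192 and 687 reads (log2 difference -0.57, SE 0.08, limma adjusted p = 0.00138). Gm27028 went from 2.40, 1.87 and 2.50 to 0.832, 1.04 and 1.29 (log2 difference -0.67, limma adjusted p = 0.00472), but from 46 and 20 reads over a model of 399 bp. Gm26532 rose from 2.17, 2.58 and 2.63 to 4.24, 4.05 and 5.02 (0.65, limma adjusted p = 0.0018). The groups overlapped for none of the 3. In the list of named microRNA hosts, Mir22hg, which is of another biotype, fell too (-0.40, limma adjusted p = 0.0113), so both of the 2 tested fell. With 24.8% of all genes tested called lower, a list of 2 is too short to be set apart.

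Models that span a snoRNA or scaRNA, guides of RNA modification, on the same strand numbered 8 of the 163, of which 1 rose, 1 fell (2700038G22Rik, above) and 6 were not called. Of these, 5 are on the list of named snoRNA hosts. Snhg10, Snhg20 and 2900076A07Rik are also among the microRNA hosts above, the last through Mir1839, which is counted in both sets. The host that rose was Epb41l4aos, from 46.2, 49.7 and 52.6 FPKM to 66.0, 57.6 and 58.6 (log2 difference 0.29, SE 0.07, limma adjusted p = 0.0148). Snhg6 was at 43.7, 43.6 and 49.2 and at 48.8, 49.02 and 46.8, and Snhg12 at 12.9, 12.4 and 12.9 and at 13.4, 13.2 and 13.8, neither called and both with a sign that turned with TPM scaling (-0.03 each). Snhg18, Snhg10 and 2900076A07Rik were not called, nor was Snhg20 (0.40, limma adjusted p = 0.123), which passed the threshold without HuR library 1 (0.58, limma adjusted p = 0.0252). Over the whole list, 14 were tested, 4 rose and 0 fell (2 and 1 with TPM scaling), beside 20.7% higher and 24.8% lower of all genes tested. The largest rise of the list was that of Snhg1, which is of another biotype (log2 difference 0.80).

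AW112010, an RNA that is induced in activated mouse macrophages and reported there to be translated, was the most abundant after Gm26917. It was at 125, 129 and 127 FPKM with beta-Gal and 165, 136 and 149 with HuR. Its log2 difference of 0.23 (SE 0.07, limma adjusted p = 0.0308) was lost in 8 of 18 alternatives, with limma adjusted p up to 0.119, among them those without beta-Gal library 1, 2 or 3 or HuR library 3. Gm10076 was at 39.3, 54.7 and 43.2 and at 66.4, 36.4 and 147, a spread within the HuR group larger than the difference, and was not called, except without HuR library 2 (log2 difference 1.11, limma adjusted p = 0.0463).

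**Figure D3:**
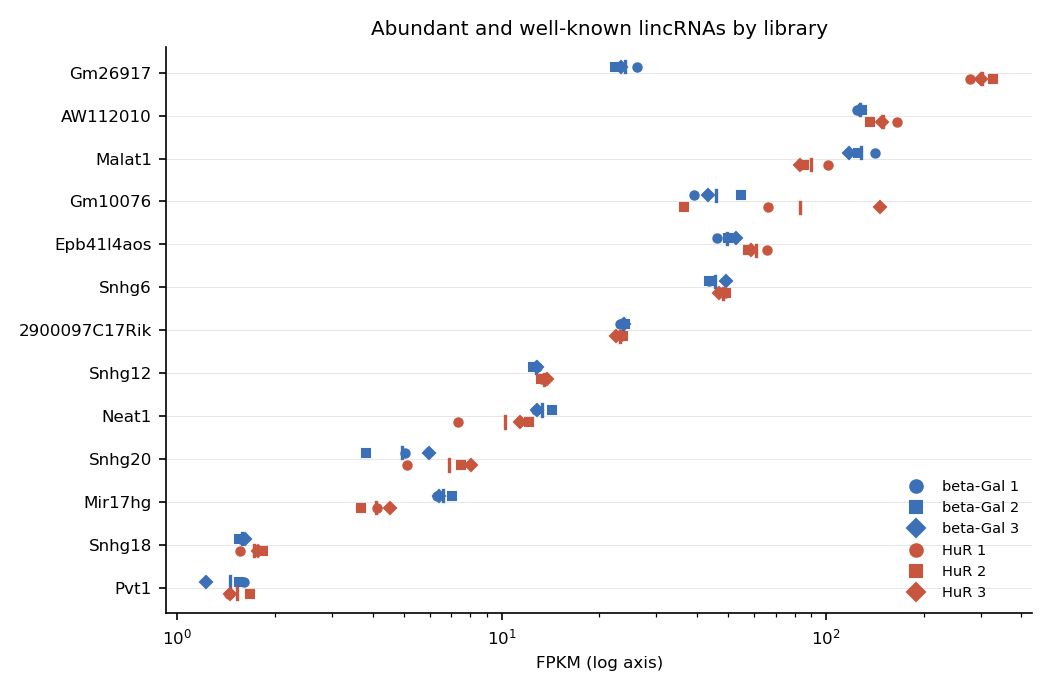
FPKM in every library (log axis) for the 6 most abundant lincRNAs and those of the named lists, ordered by mean FPKM; symbols are libraries and short bars are group means. Malat1 falls from 118 to 142 to 83.3 to 101 FPKM, 2900097C17Rik lies between 22.5 and 23.9, and Gm10076 spreads from 36.4 to 147 within the HuR group.

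Of the RNAs tied to p53 and DNA damage, 2900097C17Rik, the mouse Norad, which binds Pumilio proteins, was not called, at 23.1, 23.9 and 23.8 FPKM with beta-Gal and 23.3, 23.7 and 22.5 with HuR (log2 difference -0.03, SE 0.04, limma adjusted p = 0.601). Pvt1, the neighbour of Myc, was at 1.601, 1.55 and 1.22 and at 1.44, 1.68 and 1.45 and was not called, with a sign that turned with TPM scaling. On that list 4 were tested and 1 fell, Tug1, which is of another biotype (-0.71, limma adjusted p = 6.35e-04). Of 8 RNAs reported in the literature with HuR, 4 were tested (Malat1, Gas5, Neat1 and Pvt1) and Malat1 was the 1 called, lower. Beside the 24.8% lower of all genes tested, these counts do not set either list apart.

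The nearest expressed gene, taken as the closest gene model with a mean FPKM of at least 5, lay at a median gap of 19.3 kb, from 0 to 1726 kb. Within 10 kb were 68 lincRNAs, of which 19 rose and 9 fell. Beyond 10 kb were 95, of which 26 rose and 6 fell. The share that rose was 27.9% near and 27.4% far, and the share that fell 13.2% and 6.32%. Of all genes tested, 20.7% were called higher and 24.8% lower. Without those that passed through 1 group alone, 12 of 60 near rose and 8 fell, and 17 of 83 far rose and 4 fell. The near counts moved with the definition, to 99 near with 29 rises and 10 falls for a neighbour of at least 1 FPKM, and to 44 with 13 and 5 for one of at least 10 FPKM. Models of 18 lincRNAs overlapped an expressed gene, 16 of them on the opposite strand, with 3 rises and 3 falls.

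Within 10 kb the counts differed by the side on which the lincRNA lay. On the same strand after the end of the neighbour there were 10, of which 5 rose and 2 fell, with a median log2 difference of 0.57. Of their neighbours 7 fell and 0 rose, with a median of -0.26. On the same strand before the start there were 11, with 5 rises and 1 fall, and in convergent position 7, with 4 rises and 0 falls. In divergent position, starting near the neighbour's start and running away from it, there were 22, with 2 rises, 3 falls and a median of -0.04. Without the lincRNAs that passed through 1 group alone, the rises and falls were 3 and 2 of 8 after the end (median 0.24), 4 and 0 of 9 before the start, 3 and 0 of 6 in convergent position and 1 and 3 of 21 in divergent position. These are counts in small classes, of lincRNAs and of neighbours, to be read beside the 20.7% higher and 24.8% lower of all genes tested. No test of the difference between classes was made.

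**Figure D4:**
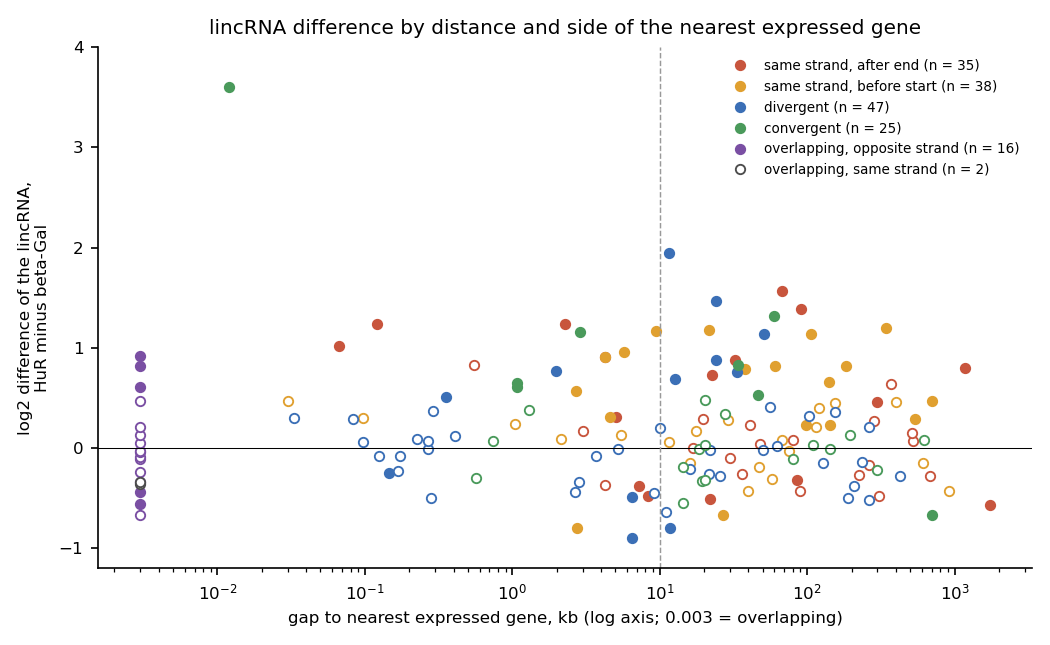
Log2 difference of each lincRNA against the gap to its nearest expressed gene in kb (log axis, overlapping models drawn at 0.003), coloured by side; filled points are called and the dashed line marks 10 kb. Left of the line, the points after the end of a gene have a median of 0.57 (5 rises of 10) and the divergent ones of -0.04 (2 rises of 22). Of all genes tested, 20.7% were called higher.

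In 5 pairs of a lincRNA just after the end of a gene both were called, 4 in opposite directions and 1 in the same (2 and 1 without the lincRNAs that passed through the HuR libraries alone, Gm43848 among them). In the same direction, 1700001L05Rik and Pacsin2, a membrane-shaping protein, both fell (-0.48 and -0.28). Gm43848 lies 120 bp after Rap1a, a small GTPase that fell by 0.21, and Gm47814 lies 2293 bp after Polr3a, the largest subunit of RNA polymerase III, which fell by 0.41. In a further such pair 1810058I24Rik rose by 0.31 and Nup205, a nuclear pore protein, fell by 0.30. Whether the reads of these lincRNAs continue those of the gene before them was not tested.

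Across all 163, the difference of each lincRNA was set against that of its nearest expressed gene, as a description. Pearson's r was 0.04 and Spearman's rho -0.04 over the 163 pairs, which share libraries and in some cases the neighbour. Both were called in 34 pairs, 15 in the same direction and 19 in opposite directions, and in 17 of the 19 the lincRNA rose and the neighbour fell. In these 34 pairs, 30 of the lincRNAs rose and 19 of the neighbours fell, and over all 163 pairs 45 lincRNAs rose and 52 neighbours fell, so no link is read from the 17. Without the lincRNAs that passed through 1 group alone there were 23 such pairs, 11 in the same and 12 in opposite directions. The largest change of a neighbour was that of Rn7sk, the 7SK RNA that holds a transcription elongation factor inactive, with a log2 difference of 5.13 (limma adjusted p = 2.74e-08). C920006O11Rik, which starts 281 bp from it and runs away, was at 1.49, 3.22 and 1.46 FPKM and at 0.920, 1.15 and 1.24 and was not called.

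**Figure D5:**
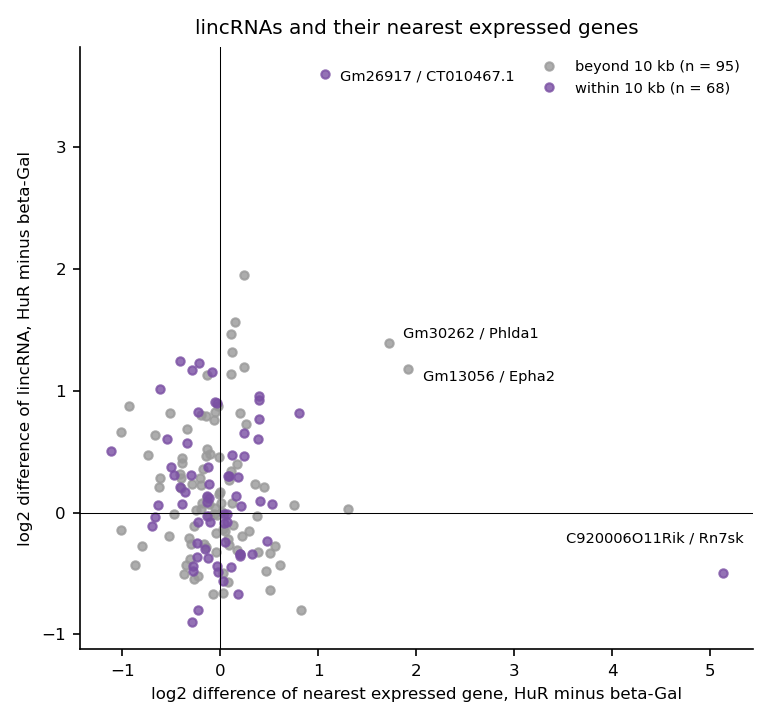
Log2 difference of each lincRNA against that of its nearest expressed gene (both HuR minus beta-Gal), purple within 10 kb and grey beyond. The points form a cloud with r = 0.04, and Rn7sk with C920006O11Rik lies apart at 5.13.

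Some lincRNAs start back to back with a neighbouring gene. Of 14 in divergent position within 1 kb of the neighbour, 1 rose and 1 fell, beside 20.7% higher and 24.8% lower of all genes tested. RefSeq promoters (250 bases before to 50 after the start, GRCm38.p6) were found for 82 of the 163. The 11 divergent ones among them held a median of 36 CG dinucleotides in 300 bases, and all 11 held at least 10, against a median of 7 and 42.3% for the other 71 and 43.5% of the 32851 promoters in the table. The RefSeq start was not always that of the lincRNA model. It lay 54967 bp away for Gm31718, and 1511 bp away for Mir17hg, where the window falls within the microRNA cluster. Among the 11 divergent ones, the RefSeq start lay 933 bp away for 5031425E22Rik and 175 bp away for Fam120aos. Some windows of the 11 and of the other 71 may thus not be promoters of these lincRNAs, which limits the comparison. The promoters of the 2 divergent ones that were called are shown, with each CG in capitals.
2810414N06Rik, chr1:151754969-151755268, minus strand: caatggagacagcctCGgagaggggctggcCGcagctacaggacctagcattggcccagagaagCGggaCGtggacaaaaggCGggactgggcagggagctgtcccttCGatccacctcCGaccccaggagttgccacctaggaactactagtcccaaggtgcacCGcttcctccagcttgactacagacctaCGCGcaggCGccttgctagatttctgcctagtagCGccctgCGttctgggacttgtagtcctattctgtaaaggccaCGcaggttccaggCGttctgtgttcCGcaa
B230354K17Rik, chr17:45433581-45433880, plus strand: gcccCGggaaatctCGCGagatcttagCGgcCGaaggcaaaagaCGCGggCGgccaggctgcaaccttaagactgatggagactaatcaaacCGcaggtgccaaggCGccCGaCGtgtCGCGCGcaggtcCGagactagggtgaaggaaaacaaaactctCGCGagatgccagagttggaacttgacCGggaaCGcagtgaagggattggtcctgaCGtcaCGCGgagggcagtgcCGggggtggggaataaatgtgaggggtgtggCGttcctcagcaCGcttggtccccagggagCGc
They hold 16 and 27 CG. 2810414N06Rik, 353 bp from the start of Edem3, an enzyme of protein quality control in the endoplasmic reticulum, went from 0.824, 1.33 and 0.849 FPKM to 1.54, 2.20 and 1.76 (log2 difference 0.50, limma adjusted p = 0.0225). It met the rule through the HuR libraries and a single beta-Gal library, so the rule favoured a rise and the p-value is not free of that choice. Edem3 fell from 8.38, 7.69 and 8.85 FPKM to 3.96, 3.10 and 2.89 (-1.11, limma adjusted p = 3.08e-04). B230354K17Rik, 145 bp from Cdc5l, a splicing factor, went from 2.27, 2.38 and 2.37 to 1.76, 1.88 and 1.81 (-0.25, limma adjusted p = 0.02), and Cdc5l was not called (-0.24, limma adjusted p = 0.0778). Both lincRNA calls were lost when 1 library was left out: that of 2810414N06Rik without beta-Gal library 1 or 3 or HuR library 2 or 3, and that of B230354K17Rik without beta-Gal library 1, 2 or 3, with limma adjusted p up to 0.0741 and 0.0705 over all alternatives.

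LincRNAs that lie close to one another did not always move together. There were 13 pairs within 50 kb, of which 8 had the same sign, and in 3 pairs both were called. Gm26809 and Gm20186, which overlap on opposite strands, both rose (0.80 and 0.82, Gm20186 having passed through the HuR libraries alone), as did Gm16188 and Gm13073, which overlap in the same way (0.77 and 0.96, Gm16188 having passed through the HuR libraries alone), where the call of Gm13073 was lost without beta-Gal library 3 or HuR library 2. 5930430L01Rik and Gm15408, whose starts lie 11.7 kb apart, went in opposite directions: Gm15408 rose from 6.90, 6.78 and 5.87 FPKM to 9.92, 14.4 and 13.0 (0.83, limma adjusted p = 0.00275), while 5930430L01Rik fell by 0.80.

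In structure the 163 were short, with a median of 2 exons and 1044 bp in the longest annotated transcript, and 27 (16.6%) had a single exon, against 6.75% of other lincRNA models. Their median GC content was 48.5%, against 45.8% for other lincRNA models and 49.7% for the protein-coding genes tested. GENCODE M21 held all 163, 151 of them (92.6%) with the same coordinates, and gave 8 another type, among them 4 bidirectional promoter RNAs.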

How the data were processed

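RNA-seq of 3 beta-Gal and 3 HuR samples was deposited as 1 table of FPKM per gene model, scaled by the authors for gene length and library size. The submitters' processing notes name the build GRCm38.p6 and the tools featureCounts 1.5.0-p3, HISAT2 2.0.5 and DESeq2 1.16.1, without their order. Strand-specificity: not given in the sources used. FPKM times gene length gave whole multiples of 1 read for 100% of values (tolerance 0.001), so reads behind each value could be counted. Intervals of counting error are not given, and reads are quoted as depth only.

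Groups and replicate numbers came from the sample titles. Genes with FPKM of at least 1 in 3 of the 6 libraries were tested with limma 3.58.1 (R 4.3.3) after adding a pseudocount of 1 to the FPKM and taking log2, with trended variance, the group as the only term and Benjamini-Hochberg adjustment over the 11281 genes. A positive difference is higher in HuR, and the scale understates changes of low values. The step was also run on simulated data, with the same dispersion set for every gene, and no call given here rests on that run. The lincRNAs and the gene lists were chosen with earlier results of these data known. Named were the 10 largest called rises and falls without overlap, the 6 most abundant, members of the lists, and neighbours, with others said to be picked afterwards. Gaps are between gene models of the table. Transcripts came from GENCODE M21 and promoters and microRNAs from RefSeq. Tables were made with pandas 2.3.3, numpy 2.4.6 and scipy 1.17.1 and figures with matplotlib 3.10.9, in Python 3.11.15. Alternatives were other pseudocounts, filters, scalings and variance models, a replicate block, voom on the recovered reads, other neighbour definitions and each library left out. One sequence window and a few gene values are not reported here.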

Additional observations from a re-analysis of the deposited data

How the results depend on the processing

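All 60 called lincRNAs kept their direction in every alternative that gave them a value, and 44 of them (36 higher, 8 lower) stayed called in all of these. Without a filter on low values 15 of the 60 lost their call, and 9 were then called lower. With FPKM of at least 2 in 3 libraries, 78 lincRNAs remained, with 25 higher and 9 lower. Among those at the minimum in all 6 libraries 23 were higher. TPM scaling moved the median of all genes to -0.11 (log2), called 1543 genes higher and 23 lincRNAs lower, and turned Snhg6 (-0.025), Snhg12 (-0.029) and Pvt1 (-0.033), none of them called. Median centring turned 2900097C17Rik (0.015), and leaving out libraries turned Pvt1 (-0.031 without beta-Gal library 3, -0.0037 without HuR library 2, range -0.031 to 0.082). With each library left out, lincRNAs called ranged from 39 to 48 higher and 10 to 21 lower, and all genes from 1750 to 2371 and 2146 to 2913. An expressed neighbour at 1 FPKM gave 99 near lincRNAs, 29 of them higher, and at 10 FPKM 44 near, 5 of them lower. Without the lincRNAs that passed through 1 group alone, 29 were higher and 12 lower, with 12 higher among 60 near. A limit of 5 kb gave 5 lower, and 50 kb gave 108 near and 30 higher. The difference in the share of reads was 0.062 percentage points, -0.030 without Gm26917 and -0.0011 without Gm26917 and Malat1. These, the removal of lincRNAs that passed through 1 group and voom with the authors' scaling were chosen after seeing the data. The causes were not tested. Of the 163, 11 rested on under 10 reads per library. Libraries with the same replicate number did not deviate together (correlations -0.029, 0.0007 and -0.014). This gave no sign of pairing but cannot exclude it, since pairs that share little variation would look the same. With the replicate block, 46 lincRNAs were higher and 19 lower, and 2084 and 2465 of all genes.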

Other observations

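Other noncoding biotypes in the same table were called as follows with limma, beside 20.7% higher and 24.8% lower of all genes tested and 27.6% and 9.20% of the lincRNAs. Of 149 antisense RNAs tested, 38 rose and 23 fell (25.5% and 15.4%). Of 80 models annotated as processed transcripts, 26 rose and 12 fell (32.5% and 15.0%). Of 52 models awaiting experimental proof (TEC), 14 rose and 7 fell (26.9% and 13.5%). Of 18 bidirectional promoter RNAs, 5 rose and 1 fell (27.8% and 5.56%). The median log2 differences of these biotypes were 0.05, 0.12, 0.13 and 0.14, beside 0.08 for the lincRNAs and -0.01 for all genes tested. No test of the difference between biotypes was made.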
